A study of Mus musculus with 12 samples.

Results

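The postsynaptic density scaffold genes described here are 33 genes chosen by name, namely the MAGUK, SAPAP, SHANK, HOMER and IQSEC families and a set of calmodulin-linked, GTPase-regulating, actin-binding and ankyrin-repeat proteins most of which are anchored with them under the excitatory synapse. They are 33 of 48709 genes counted in the whole series. Their RNA was sequenced from 12 primary cultures of mouse hippocampus, 6 treated with a miR-148a-3p mimic, a synthetic RNA that acts like this microRNA, and 6 with a negative control oligonucleotide. The cultures came from embryonic day 17 embryos of CD1 mice, whose hippocampi were pooled according to the methods of the study, and they held glial cells as well as neurons. Both groups received their oligonucleotide in lipid nanoparticles at day 10 in vitro, the carrier and the culture conditions being shared, and both were harvested after 48 h, at day 12. The comparison asks how the RNA of these genes differed when miR-148a-3p was raised. No source states that the 6 cultures of a group came from separate preparations, so p-values measure the spread between these samples, which may be technical.

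The postsynaptic density is a protein mesh under the membrane of excitatory synapses, most of which sit on dendritic spines. Membrane-associated guanylate kinases (MAGUKs, genes Dlg1 to Dlg4) bind glutamate receptors, SAPAP proteins (Dlgap1 to Dlgap4) link them to SHANK proteins, and SHANK and HOMER proteins form a deeper layer that reaches metabotropic receptors and the actin cytoskeleton. Regulators of small GTPases, calcineurin and actin-binding proteins docked on this mesh set the size of the spine. MicroRNAs lower the stability or translation of RNAs that pair with their seed, the short stretch at bases 2 to 8, and an RNA measurement covers only the former.

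The oligonucleotides are shown because their seeds define which sites were searched for in the scaffold genes. They run 5′ to 3′ with the seed in capitals; both come from the study's reagent list, the control sequence being assumed to be the one these cultures received since the series description names the control differently, and the mimic equals the RefSeq mature mouse miR-148a-3p (GRCm38.p6, minus strand, chr6:51269829-51269850).
miR-148a-3p mimic: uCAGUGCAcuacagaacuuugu
negative control: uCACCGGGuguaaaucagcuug

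Sites were searched on the strand of the transcript as TGCACTG, which pairs with bases 2 to 8 of the mimic, and as GCACTGA, which pairs with bases 2 to 7 and ends in A; a place that holds both was counted once, as an 8-base site. In the longest annotated 3′ untranslated region (UTR) of each gene, 15 of the 33 scaffold genes held at least 1 site, 22 sites in all. The 3′ UTRs of the scaffold genes were long, with a median of 2301 bases against 1173 over the 15082 tested genes with a 3′ UTR, of which 21.9% held a site. Among the 4506 tested genes whose 3′ UTR was 1742 to 4630 bases long, the middle range of the scaffold genes, 35.9% held a site. Ppp1r9a held 5 sites, Iqsec1 held 3 and Homer1 held 2. Only Ppp1r9b and Homer1 held an 8-base site in that UTR, against 4.15% of the tested genes. Shown are the 8-base sites, the 5 sites of Ppp1r9a and the site of Tanc1, a gene that was higher in mimic; each is given on GRCm38 (mm10), plus strand, inside a single 3′ UTR exon, with the match to the mimic in capitals and 10 bases on either side.
Ppp1r9b, chr11:95005939-95005966: ggcctgggccTGCACTGAtttgtatcct
Homer1, chr13:93357380-93357407: ttgagacatcTGCACTGAatactatgac
Ppp1r9a, chr6:5160486-5160512: tgtttgaccaGCACTGAcaaactgcac
Ppp1r9a, chr6:5161799-5161825: aaagctggacTGCACTGgaagcttctg
Ppp1r9a, chr6:5162172-5162198: ggctcttgatTGCACTGttcagcaaag
Ppp1r9a, chr6:5162611-5162637: taaagaactgTGCACTGgatgtctgtg
Ppp1r9a, chr6:5164696-5164722: ttgactaaatTGCACTGtgtgttctcg
Tanc1, chr2:59845137-59845163: gctggttgccGCACTGAacgatgcgtt

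The isoform decides whether some of these sites are present. Both Homer1 sites lay in the 3′ UTR of the transcript for the short, 186-residue form, while the 3′ UTRs of the other 10 coding transcripts of Homer1 held none. The searched 3′ UTR of Rasgrf1, with 1 site, belonged to a transcript for a 153-residue form that ends near the start of the gene, and the 3′ UTR of its longest, 1262-residue form held none. The 5 sites of Ppp1r9a lay in the 3′ UTR of a 1095-residue form, and the 65-base 3′ UTR of its longest, 1292-residue form held none. With the 3′ UTR of the transcript with the longest coding sequence in place of the longest 3′ UTR, 10 of the 33 genes held a site, against 19.8% of the tested genes. Counts per gene do not separate these forms.

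All 33 scaffold genes passed the filter of at least 5 counts in 6 of the 12 libraries, as did 18847 genes in all, and their lowest count in any library was 478. Library totals ran from 20018234 to 37149112 counts, and the smallest totals were those of control 1 and control 2. Levels are given as CPM, the counts per 1000000 counts of the normalised library total, as the lowest, median and highest of the 6 libraries of a group. Changes are log2 fold changes of mimic against control with their standard error (SE), and a gene was called where the adjusted p of the quasi-likelihood test of edgeR, Benjamini-Hochberg over all 18847 genes, was under 0.05. The 16 neuron markers summed to 10660 CPM or more in each control library, the 11 astrocyte markers to 4949 to 5432 CPM, and the 10 microglia markers to at most 24.9 CPM in any library.

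Control 1 stood apart from the other libraries in the scaffold genes. Of the 33 genes, 22 had their highest control value in control 1 and 5 their lowest. The summed level of the 33 genes was 7381 CPM in control 1, 6505 to 6678 CPM in the other 5 control libraries and 6550 to 6699 CPM in the 6 mimic libraries. The genes that were high in control 1 were mostly those with much guanine and cytosine (GC) in their transcripts. Dlgap3, with 63.9% GC the richest of the 33, had 183 CPM in control 1, 141 CPM in control 2 and 113 to 124 CPM in the other controls. Ppp3cb, with 39.8% GC, showed the opposite order, with 306 and 297 CPM in controls 1 and 2 and 328 to 387 CPM in the other controls.

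The same order held across the family. The deviation of each gene from its control mean had a Spearman's rho with transcript GC content of 0.87 in control 1 and 0.80 in control 2, of −0.16 in control 3, and of −0.76, −0.88 and −0.81 in controls 4, 5 and 6. These are descriptions across 33 genes that share a library and are not independent, and each deviation is from a mean that includes the library itself. In the mimic libraries rho lay between −0.45 and 0.04. Over 13645 genes with more than 1 CPM in every library rho was 0.72 in control 1 and −0.69 in control 5, so the order was not particular to the scaffold genes. Kalrn, at 45.5% GC, departed from it, with 261 CPM in control 1 and 215 to 242 CPM in the other controls; the median over its 13 coding transcripts was 52.9%. Dlg4 did so too, with 642 CPM in control 1 and 457 to 523 CPM in the other controls at 46.8% GC, the value of its longest transcript, and the median over its 9 coding transcripts was 56.1%.

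**Figure D1:**
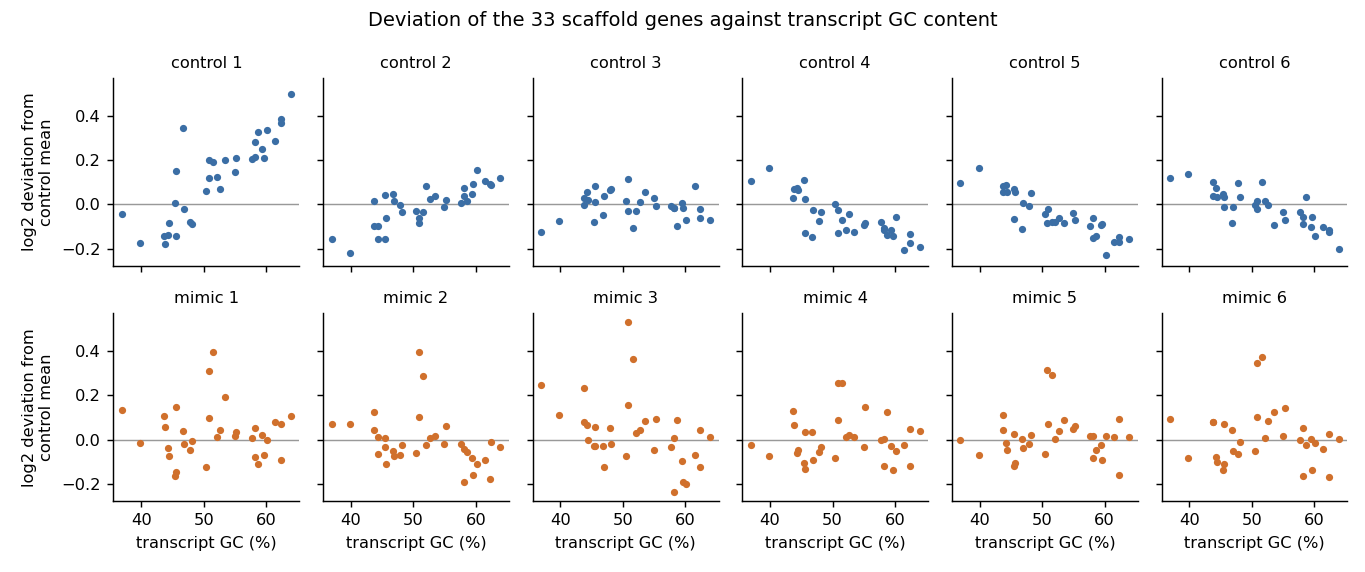
Deviation of log2 CPM from the control mean (vertical axis) against the GC content of the longest transcript in percent (horizontal axis) for the 33 scaffold genes, 1 panel for each of the 6 control (blue) and 6 mimic (orange) libraries. The points rise with GC content in controls 1 and 2 and fall in controls 4, 5 and 6.

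The control libraries varied more than the mimic libraries for these genes. The standard deviation of log2 CPM was larger in control than in mimic for 32 of the 33 genes, with a median of 0.113 in control and 0.046 in mimic. Over the 13645 genes it was larger in control for 78.3%, with medians of 0.12 and 0.07. Each library was also corrected for the relation of its log2 CPM to transcript GC content over all genes. This alternative was added after the data were seen. The medians of the 33 genes were then 0.047 and 0.034, and the control SD was larger for 26 of them. Over the 13645 genes it was larger in control for 65.8%, with medians of 0.081 and 0.063. With the correction, rho with GC lay between −0.026 and 0.087 in the control libraries and between 0.011 and 0.19 in the mimic libraries. Control 1 still had the highest control value for 15 of the 33 genes. Results are given as counted, which means from the edgeR fit without this correction, and, for members and synaptic lists whose calls differ, with this GC correction. How the GC differences between libraries arose was not tested.

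**Figure D2:**
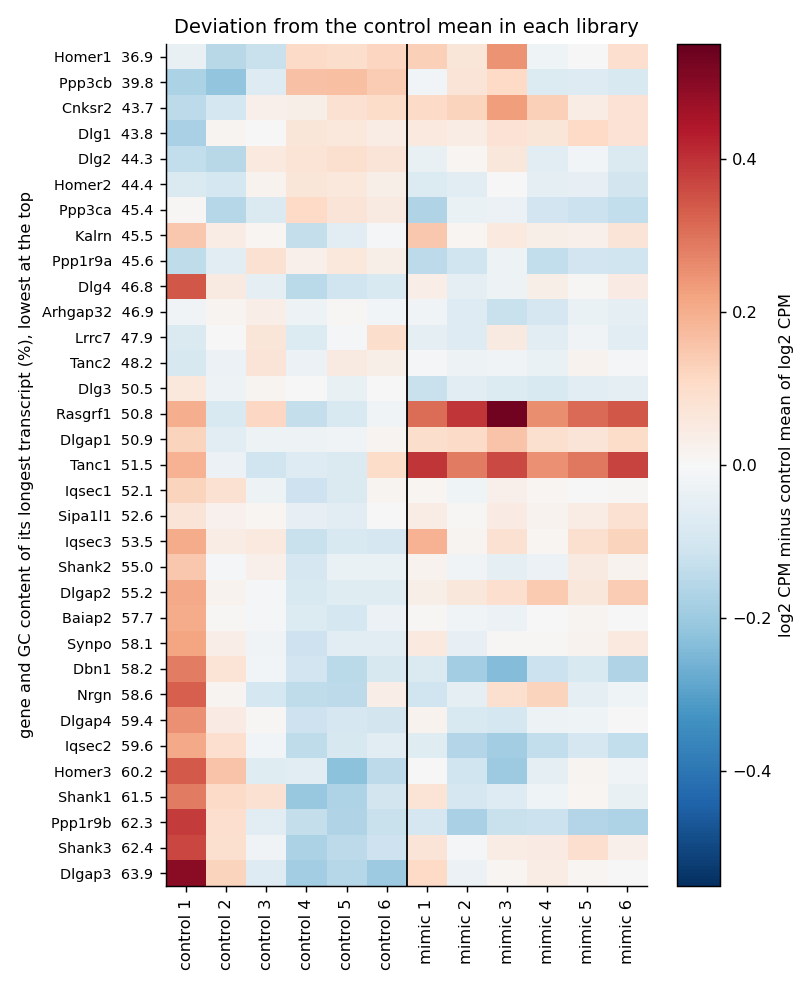
Heat map of log2 CPM minus the control mean of log2 CPM (colour scale, red above and blue below the mean) for the 33 scaffold genes (rows, ordered by transcript GC content in percent from the top) in the 12 libraries (columns, control to the left of the line). Control 1 is red for the GC-rich genes at the bottom, and Rasgrf1 and Tanc1 are red in all 6 mimic libraries.

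The levels of the scaffold genes spanned a 43.7-fold range per length of exon in control. Neurabin-2 (Ppp1r9b, also called spinophilin), which binds actin and protein phosphatase 1, and drebrin (Dbn1), which coats actin filaments of spines, were the highest, at 85.2 ± 13.4 and 84.6 ± 9.8 CPM per kb of exon (SD, n = 6). The calmodulin-binding protein neurogranin (Nrgn), at 68.1 ± 8.9, and the calcineurin catalytic subunit Ppp3ca, at 65.2 ± 4.4 CPM per kb, came next. Each of these neighbours differed by less than the sum of their SDs. Ppp3cb, the other calcineurin subunit, at 39.4 ± 4.8, and Dlg4, which encodes PSD-95, at 38.5 ± 5.2 CPM per kb, followed after a gap wider than the spread.

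The lowest 2 were Tanc1, at 2.34 ± 0.20, and Rasgrf1, at 1.95 ± 0.18 CPM per kb, below Homer1 at 5.59 ± 0.47 by more than the spread. Only 6 of the 32 neighbouring pairs in the order were farther apart than the sum of their SDs. The median of the 33 genes was 15.4 CPM per kb against 4.98 over the 15177 tested protein-coding genes, and 31 of the 33 lay above the latter. Exon lengths are unions over all annotated transcripts, so a gene with long unused exons is understated.

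**Figure D3:**
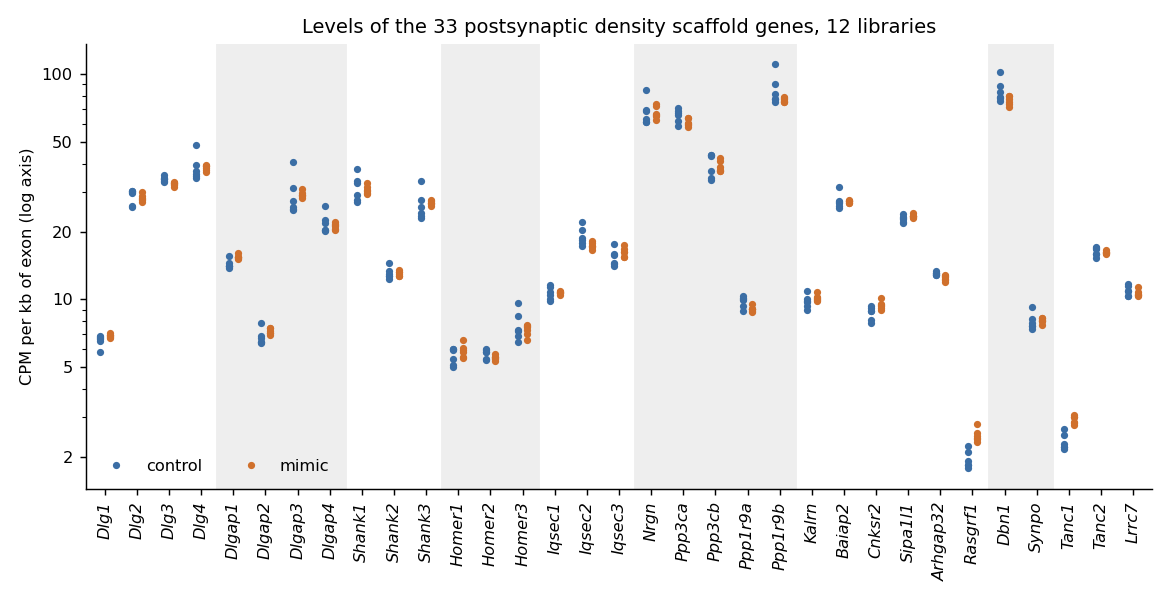
CPM per kb of exon (log axis) of the 33 scaffold genes in the 6 control (blue) and 6 mimic (orange) libraries, 1 point for each library, with shading by family or role. Ppp1r9b and Dbn1 were the highest and Rasgrf1 and Tanc1 the lowest in control; the blue and orange points of Rasgrf1 and Tanc1 do not overlap.

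Between mimic and control, 3 of the 33 scaffold genes were higher, Rasgrf1, Tanc1 and Dlgap1, and 0 were lower. Over all 18847 genes tested, 11.5% were called higher and 10.7% lower. The median log2 fold change of the 33 genes was −0.008, beside −0.012 over all genes tested. At an unadjusted p under 0.05, 4 scaffold genes were higher and 6 lower, beside 16.1% and 16.6% of all genes, and DESeq2 called the same 3 higher and 3 lower, Dlg3, Ppp1r9a and Arhgap32, beside 12.3% and 11.1%. The groups did not overlap in CPM for 3 of the 33 genes, Rasgrf1 and Tanc1 above control and Dlg3 below it, against 13.3% of all genes tested.

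The counts of calls depended on the control libraries. Without control 1 there were 6 higher and 1 lower call, beside 14.4% and 13.1% of all genes tested in that fit; Dlgap2, Shank3 and Iqsec3 joined the higher and Ppp1r9a was the lower. Without controls 1 and 2 there were 9 higher and 5 lower, beside 16.1% and 15.2%. Dlg4, Dlgap3 and Kalrn then joined these higher genes, and Dlg2, Dlg3, Homer2, Ppp3ca and Ppp1r9a were lower. With the GC correction there were 7 higher and 8 lower calls among the 33 genes, where 15.8% of all genes were called higher and 16.0% lower. The 3 genes called as counted were among them, all 15 had the same sign in both fits, and the median SE of the 33 fell from 0.047 to 0.026. The median log2 fold change with the correction was 0.011, and −0.0009 with the correction and control 2 left out. The 8 lower were Dlg3, Homer2, Iqsec2, Ppp1r9a, Ppp1r9b, Ppp3ca, Arhgap32 and Dbn1, of which Dlg3, Homer2, Ppp1r9a, Ppp3ca and Arhgap32 were above 0 when libraries were scaled to the neuron markers instead, and the 7 higher were Rasgrf1, Tanc1, Dlgap1, Cnksr2, Iqsec3, Dlgap2 and Shank3.

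The measured differences were small. Of the 30 genes not called, 25 had a log2 fold change under 0.1 in size, and for 29 of them the 95% interval lay within ±0.3; the interval of Ppp1r9b reached −0.31. Scaling the libraries to the neuron markers, whose own median was −0.14, moved the median of all genes from −0.01 to 0.10 and that of the 33 genes to 0.11, with 10 called higher and 0 lower, where 26.1% of all genes were called higher and 4.27% lower. The median of the 33 genes was close to that of all genes under both scalings. In these mixed cultures fewer cells of a type and less RNA per cell cannot be told apart.

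**Figure D4:**
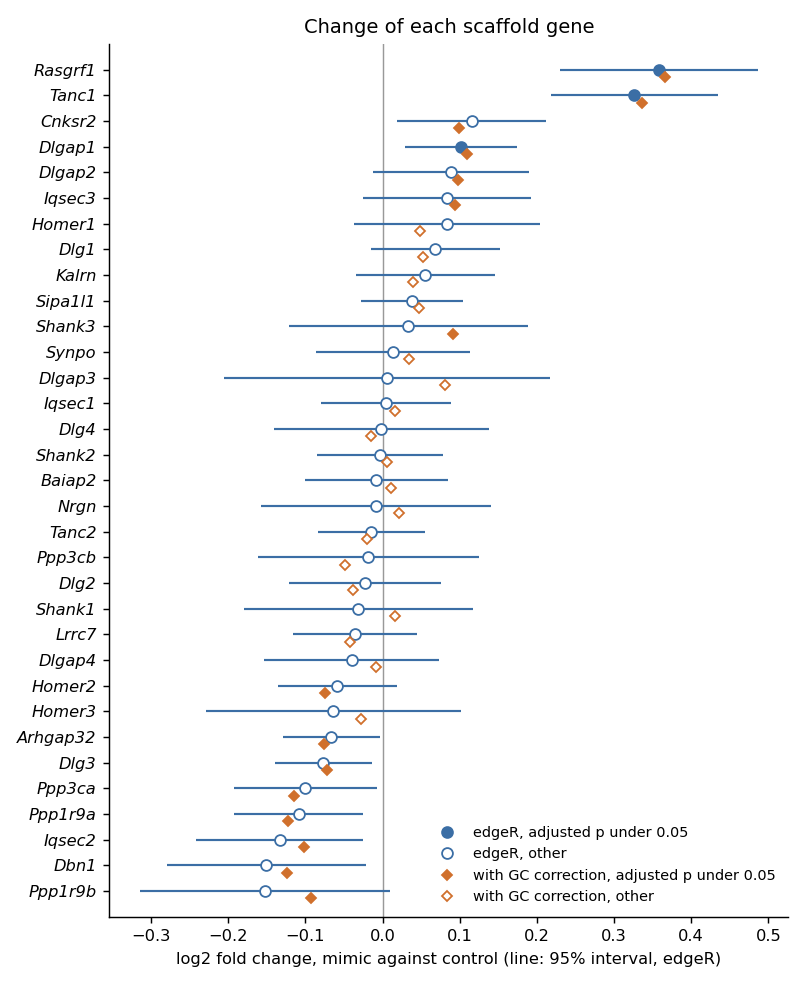
Log2 fold change of mimic against control (horizontal axis) for each of the 33 scaffold genes (vertical axis), with the 95% interval of the edgeR fit as a line; circles are as counted, diamonds with GC correction, and filled symbols mark an adjusted p under 0.05. Rasgrf1 and Tanc1 stand to the right of the others, which lie between −0.15 and 0.12.

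Tanc1 encodes a large ankyrin-repeat scaffold that binds PSD-95. It was counted at 31.5, 32.7 and 38.7 CPM (lowest, median, highest) in control and at 40.4, 42.6 and 44.5 CPM in mimic. Every mimic library was above every control library, although control 1 came closest to them. The log2 fold change was 0.33 (SE 0.051, 95% interval 0.22 to 0.43, adjusted p = 0.000143), a 1.25-fold difference, and it was called under each of the 23 alternatives, between 0.30 and 0.44. Tanc1 held 1 site for the mimic and is among the predicted targets of the microRNA that the study used. Its paralogue Tanc2 had 255, 271 and 284 CPM in control and 264, 268 and 275 CPM in mimic, with a log2 fold change of −0.01 (SE 0.033, 95% interval −0.08 to 0.05). Per length of exon, Tanc1 made up 11.2 to 14.8% of the summed level of both genes in control and 14.7 to 15.9% in mimic. Lrrc7, which encodes densin, a leucine-rich repeat protein of the same density, had a log2 fold change of −0.04 (95% interval −0.12 to 0.04).

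Rasgrf1 encodes a calcium-dependent exchange factor that activates Ras. Its counts were 19.7, 20.8 and 24.7 CPM in control and 25.7, 27.0 and 31.1 CPM in mimic. All 6 mimic libraries were above the 6 control libraries. The log2 fold change was 0.36 (SE 0.061, 95% interval 0.23 to 0.49, adjusted p = 0.000312), a 1.28-fold difference, and it was called under each of the 23 alternatives, between 0.32 and 0.47. Rasgrf1 was the least abundant of the scaffold genes per length.

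**Figure D5:**
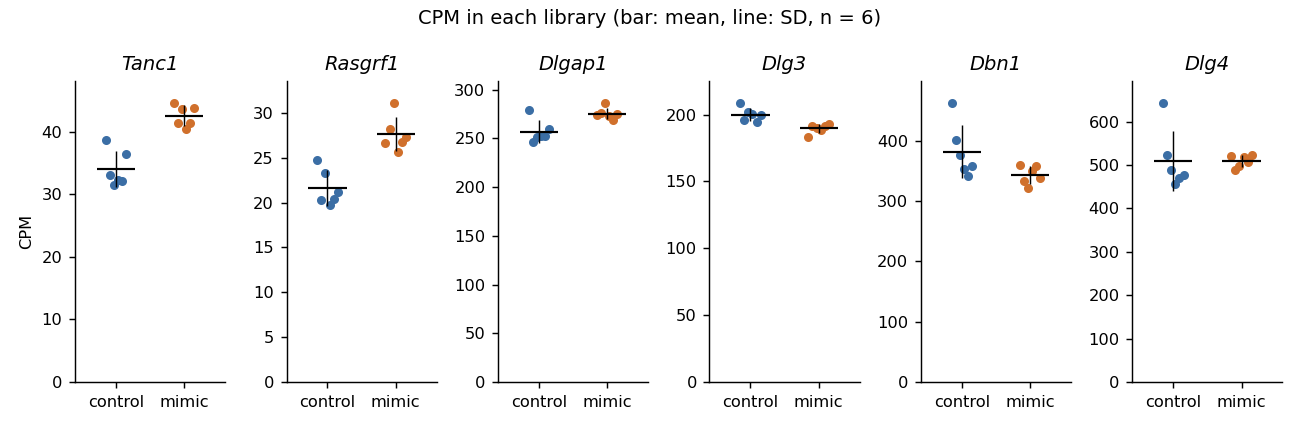
CPM (vertical axes, from 0) of 6 scaffold genes in each of the 6 control (blue) and 6 mimic (orange) libraries, with the mean as a bar and the SD as a line. The groups are apart for Tanc1, Rasgrf1 and Dlg3, while for Dbn1 and Dlg4 the highest point is control 1.

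Among the other regulators of small GTPases, Cnksr2, a scaffold of the Ras pathway, had 72.9, 82.2 and 86.2 CPM in control and 82.8, 87.2 and 94.4 CPM in mimic. The groups overlapped. The log2 fold change of 0.12 (SE 0.046) was not called as counted (adjusted p = 0.0826) but was with the GC correction (0.10, adjusted p = 0.00521). Over the 23 alternatives the value lay between 0.06 and 0.23, and Cnksr2 was called in 5 of them. Arhgap32 had 220, 223 and 229 CPM in control and 205, 214 and 220 CPM in mimic. The log2 fold change was −0.07 (SE 0.030, adjusted p = 0.127), and −0.08 with the GC correction (adjusted p = 0.0205). DESeq2 called it lower without the correction, at −0.06 (adjusted p = 0.0463). The exchange factor kalirin (Kalrn), the spine-associated Rap regulator Sipa1l1 and the membrane-bending Baiap2 had log2 fold changes of 0.06, 0.04 and −0.01, with 95% intervals of −0.03 to 0.15, −0.03 to 0.10 and −0.10 to 0.08. None of these was called in either fit.

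Of the SAPAP family, which bridges MAGUK and SHANK proteins, Dlgap1 was called higher. It had 246, 252 and 279 CPM in control and 269, 275 and 286 CPM in mimic, and 5 of the 6 control libraries lay below every mimic library. The log2 fold change was 0.10 (SE 0.034, adjusted p = 0.0412). The call was lost in 10 of the 12 fits that left out a library, where the adjusted p reached 0.0869. It was also lost with the replicate block (adjusted p = 0.0849) and without the filter on low counts (adjusted p = 0.088). The log2 fold change with the GC correction was 0.11 (adjusted p = 0.0019). Dlgap2 had a log2 fold change of 0.09 (SE 0.048, adjusted p = 0.213) as counted and of 0.10 with the GC correction (adjusted p = 0.0149), and it was called without control 1, at 0.13 (adjusted p = 0.00794). Dlgap3 and Dlgap4 had log2 fold changes of 0.01 (95% interval −0.21 to 0.22) and −0.04 (−0.15 to 0.07). Dlgap3 was at 0.12 without control 1 and at 0.08 with the GC correction (adjusted p = 0.064), and it was called higher without controls 1 and 2, at 0.18 (adjusted p = 0.00013), with the GC correction and control 1 left out, at 0.12, and with the GC correction and the replicate block, at 0.08. In control, Dlgap3 held 40.2 ± 2.9% of the summed level of the SAPAP family per length of exon and Dlgap2 9.46 ± 0.41% (SD, n = 6).

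None of the MAGUK genes was called by edgeR as counted, and DESeq2 called Dlg3 lower, at −0.07 (adjusted p = 0.016). Dlg3 had 194, 200 and 208 CPM in control and 184, 191 and 193 CPM in mimic. The groups did not overlap, although the highest mimic library, at 193 CPM, was just below the lowest control. Its log2 fold change of −0.08 (SE 0.030) had an adjusted p of 0.0755 as counted and of 0.0129 with the GC correction. Dlg4, whose product PSD-95 is the main MAGUK of mature excitatory synapses, had 457, 483 and 642 CPM in control and 489, 513 and 522 CPM in mimic, and its log2 fold change was −0.002 (95% interval −0.14 to 0.14). Control 1 was above every other library for Dlg4, and without it the value was 0.075 (adjusted p = 0.109). Without controls 1 and 2 Dlg4 was called higher, at 0.10 (adjusted p = 0.00401). The SE of Dlg4 rose with the GC correction from 0.066 to 0.090, as it did for Homer1 and Kalrn, while it fell for the other 30 genes. Dlg1 and Dlg2 had log2 fold changes of 0.07 (95% interval −0.02 to 0.15) and −0.02 (−0.12 to 0.08). Dlg4 held 35.5 ± 3.5% of the summed MAGUK level per length of exon, Dlg3 31.7 ± 0.6%, Dlg2 26.6 ± 2.6% and Dlg1 6.12 ± 0.56% in control.

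The SHANK genes, the deeper layer of the scaffold, were not called by edgeR as counted in all 12 libraries. Shank1 had a log2 fold change of −0.03 (95% interval −0.18 to 0.12), Shank2 of −0.003 (−0.09 to 0.08) and Shank3 of 0.03 (−0.12 to 0.19). Shank3 had 212, 228 and 308 CPM in control and 238, 246 and 255 CPM in mimic; control 1 and control 2 were high, and the other 4 controls lay below every mimic library. With the GC correction Shank3 was higher by 0.09 (SE 0.023, adjusted p = 0.0038), and the values of Shank1 and Shank2 were 0.02 and 0.005. Without the correction Shank3 was called higher when control 1 was left out, at 0.12 (adjusted p = 0.036), and when controls 1 and 2 were, at 0.16 (adjusted p = 0.000279). All exons of Shank3 together share 2.95% of their bases with an antisense RNA counted at a mean of 34.3 reads.

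The HOMER genes, which tie SHANK proteins to metabotropic glutamate receptors, were not called as counted either. Homer1 had 60.0, 68.1 and 72.4 CPM in control and 65.7, 70.5 and 79.2 CPM in mimic. The groups overlapped, and the log2 fold change was 0.08 (SE 0.057, adjusted p = 0.339), and 0.05 with the GC correction (adjusted p = 0.6). Homer1 was called higher with the GC correction and control 1 left out, at 0.10 (adjusted p = 0.0199). It was also called scaled to the neuron markers, at 0.20 (adjusted p = 0.00723). Homer2 had a log2 fold change of −0.06 (SE 0.037, adjusted p = 0.295) as counted and of −0.07 with the GC correction (adjusted p = 0.0219). That of Homer3 was −0.06 (95% interval −0.23 to 0.10), with 25.4% of its exon bases shared with the opposite-strand gene Ddx49; since the strand setting of the counting is not stated, Homer3 is uncertain. The 3 HOMER genes held 29.5 ± 2.7%, 30.3 ± 2.3% and 40.3 ± 4.7% of their summed level per length of exon in control. Their order was within the spread for Homer1 and Homer2. Before division by exon length Homer3 was the lowest, with control means of 67.0, 72.4 and 26.4 CPM for Homer1, Homer2 and Homer3.

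The IQSEC genes encode exchange factors for ARF GTPases at synapses, Iqsec1 and Iqsec2 mainly at excitatory and Iqsec3 at inhibitory ones. Iqsec2 had 120, 129 and 153 CPM in control and 116, 121 and 127 CPM in mimic. The groups overlapped, and the log2 fold change of −0.13 (SE 0.051) had an adjusted p of 0.0732. It was −0.10 with the GC correction (adjusted p = 0.00092). The value was −0.09 without control 1 and −0.06 without controls 1 and 2 (adjusted p = 0.193). Iqsec3 had a log2 fold change of 0.08 (SE 0.052, adjusted p = 0.289) as counted and of 0.09 with the GC correction (adjusted p = 0.0206). Without control 1 it was called, at 0.13 (adjusted p = 0.0215), as it was without controls 1 and 2, at 0.15 (adjusted p = 0.00558). Iqsec1, with 3 sites for the mimic, was at 0.005 (95% interval −0.08 to 0.09). As a share of the summed IQSEC level per length of exon, which cancels what the 3 genes have in common in a library, Iqsec2 was at 41.6 to 42.9% in the 6 control libraries and 38.03 to 39.8% in the 6 mimic libraries. Iqsec3 was at 33.1 to 35.2% in control and 35.5 to 37.7% in mimic. Neither share overlapped between the groups, the only 2 of the 23 shares in 8 families of which this held. In CPM, a different measure, the groups did not overlap for 13.3% of all genes tested. Shares of a family sum to 100%, so these are not separate observations, and no test was made of them.

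The calmodulin and phosphatase genes had the lowest median of the role groups with at least 3 genes, −0.10, and none was called by edgeR as counted. Ppp1r9a, which encodes neurabin-1, had 129, 145 and 150 CPM in control and 128, 131 and 139 CPM in mimic. Controls 1 and 2 were among the mimic values and the other 4 controls above all of them. The log2 fold change was −0.11 (SE 0.040, adjusted p = 0.0596), and with the GC correction −0.12 (SE 0.025, adjusted p = 0.000539). DESeq2 called Ppp1r9a lower without the correction, at −0.11 (adjusted p = 0.0383), and so did edgeR without control 1, at −0.14 (adjusted p = 0.00297). Ppp1r9b had 382, 403 and 561 CPM in control and 380, 389 and 403 CPM in mimic. Controls 1, 2 and 3 were above every mimic library, controls 1 and 2 by far, and the other controls lay among them. Its log2 fold change was −0.15 (SE 0.076, adjusted p = 0.18) as counted and −0.09 (SE 0.023, adjusted p = 0.00316) with the GC correction. Without control 1 the value was −0.06, and without controls 1 and 2 it was −0.02.

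Ppp3ca, the alpha catalytic subunit of calcineurin, had 584, 662 and 701 CPM in control and 580, 602 and 636 CPM in mimic. Its log2 fold change was −0.10 (SE 0.044, adjusted p = 0.121), and −0.11 with the GC correction (adjusted p = 0.0058). Ppp3cb had a log2 fold change of −0.02 (95% interval −0.16 to 0.12) and Nrgn of −0.009 (−0.16 to 0.14). Scaled to the neuron markers, the log2 fold changes of Ppp1r9a and Ppp3ca were above 0 at 0.003 and 0.01, that of Ppp1r9b was −0.04, and none of these genes was called.

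Of the spine actin genes, Dbn1 had 342, 366 and 462 CPM in control and 322, 345 and 360 CPM in mimic. Controls 1, 2 and 3 were above every mimic library, and the other controls lay among them. The log2 fold change was −0.15 (SE 0.061, adjusted p = 0.0902) as counted and −0.12 (SE 0.023, adjusted p = 0.000226) with the GC correction. Without control 1 the value was −0.09, and without controls 1 and 2 it was −0.06 (adjusted p = 0.215). Synaptopodin (Synpo), which marks the spine apparatus, had a log2 fold change of 0.01 (95% interval −0.09 to 0.11).

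Scaffold genes with and without a seed site for the mimic had medians close to 0. The 15 genes with a site had a median log2 fold change of 0.005 and the 18 without one −0.008; 7 of the 15 and 12 of the 18 were below 0. With the GC correction the medians were 0.016 and 0.008, and of the 8 genes then lower 4 had a site (Ppp1r9a, Ppp1r9b, Ppp3ca and Arhgap32) and 4 had none (Dlg3, Homer2, Iqsec2 and Dbn1). Over all tested genes the medians were −0.036 with a site and 0.001 without. Ppp1r9a, Ppp1r9b and Tanc1 were the scaffold genes among the predicted targets of the study, and their log2 fold changes were −0.11, −0.15 and 0.33. Rasgrf1 was the only one of the 33 with a match to the seed of the negative control as listed, against 4.42% of tested genes, and this match too lay in the 3′ UTR of its 153-residue form and not in that of the 1262-residue form.

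The other synaptic genes, from lists chosen with the scaffold genes, are given as counts and medians beside the 11.5% higher and 10.7% lower of all genes, or 15.8% and 16.0% with the GC correction. Of 23 glutamate receptor genes 1 was higher and 3 were lower, with a median of −0.05 (1 and 7 with the GC correction, median −0.03); the auxiliary subunit Cnih3 was lower, with a log2 fold change of −0.36 (SE 0.041, adjusted p = 4.1e-06). Of 24 other postsynaptic density genes 4 were higher and 4 lower, with a median of −0.04 (7 and 7 with the GC correction), led by the guanine deaminase Gda at 0.26 (SE 0.076, adjusted p = 0.0215). Of 22 presynaptic genes 1 was higher and 5 were lower, with a median of −0.05 (3 and 7 with the GC correction); Slc17a6, the vesicular glutamate transporter VGLUT2, changed by −0.55 (SE 0.074, adjusted p = 3.2e-05). Of 8 inhibitory postsynapse genes 0 were called by edgeR as counted or by DESeq2, where 0 had an unadjusted p under 0.05, and 0 were higher and 2 lower with the GC correction.

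Markers of dividing cells, astrocytes and the oligodendrocyte lineage moved between the groups by more than the scaffold genes did. The median sizes of their log2 fold changes were 1.055, 0.29 and 0.55, beside 0.059 for the 33 scaffold genes. All 10 dividing-cell markers were higher in mimic, with a median log2 fold change of 1.05 and a summed level of 216 to 275 CPM in control and 475 to 499 CPM in mimic. Of 11 astrocyte markers 8 were higher and 1 was lower, with a summed level of 4949 to 5432 CPM in control and 5808 to 6264 CPM in mimic. This sum joins markers that moved in opposite directions. Of 10 oligodendrocyte lineage markers 5 were higher and 1 was lower; their summed level was 724 CPM in control 1, 429 to 459 CPM in the other controls and 810 to 1003 CPM in mimic. Of 16 neuron markers 1 was higher and 7 were lower, with a median of −0.14 (2 and 10 with the GC correction). The neuron markers summed to 10660 to 11250 CPM in control and 9764 to 10080 CPM in mimic. Of 9 vascular and mesenchymal markers tested 2 were lower, with a summed level of 197 to 266 CPM in control and 95.6 to 220 CPM in mimic, and of 10 microglia markers 2 were lower at levels near 0. The part of these cell types in the changes of Tanc1, Rasgrf1 and Dlgap1 was not tested.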

How the data were processed

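Gene expression was measured in 12 cultures, 6 per group, with groups and replicate numbers from the labels. Per the labels, poly(A) libraries were made with a TruSeq v2 kit and read from 1 end over 50 bases. Reads were aligned by the authors to mm10 with STAR 2.5.2b and counted with featureCounts (Subread 1.5.1); the deposited values used here are raw counts per Ensembl gene, whole numbers for 48709 genes. Strand setting and annotation release are not given in the sources used here, so neighbours on either strand can share reads and paralogues can split them. The deposited normalised table was not used.

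Symbols, coordinates, exons and 3′ UTRs came from GENCODE M21 (GRCm38). Genes with at least 5 counts in 50% of the libraries were tested with edgeR 4.0.16 (R 4.3.3; glmQLFit with robust estimation, TMM, no covariate) and Benjamini-Hochberg adjustment, a procedure tested on simulated data. The SE is the size of the log2 fold change divided by the square root of F. Alternatives were DESeq2 1.42.0 (the tool of the study), median-ratio factors, scaling to neuron markers, other filters, a replicate block, leaving out libraries and, added after the data were seen, an offset per library for transcript GC content (lowess of log2 CPM, span 0.3, genes with a mean of at least 100 counts). Members and lists were chosen with earlier results of these data known, so no set test was made and no p was adjusted over a list. All 33 members are named; of other lists at most 2 called genes with the largest change and a mean of at least 100 counts are named. Of these, 1 is not reported here. Whether the same replicate number pairs the samples is not known. Correlations of the deviations of same-numbered samples ran from −0.22 to 0.321. They cannot decide it, since the control deviations also carry the GC differences between libraries.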

Additional observations from a re-analysis of the deposited data

Results flagged for a closer look

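In 66 groups of 6 libraries (33 genes in control and in mimic), 6 held a library far from the others, where chance alone gives about 1 in 20 groups, or 3.3. In 5 of the 6 the library was control 1. It had 642 CPM of Dlg4 with the next at 523 CPM, 123 CPM of Nrgn with the next at 101 CPM, 157 CPM of Baiap2 with the next at 137 CPM, and 48.1 CPM of Dlgap2 with the next at 42.2 CPM, all above the other controls. It had 62.4 CPM of Dlg1, below the next at 70.4 CPM. The remaining one was mimic 3, with 139 CPM of Ppp1r9a, above the next at 132 CPM. None of the 3 genes called between the groups was among them.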

How the results depend on the processing

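Calls of lower genes moved from 0 to 3 with DESeq2 (Dlg3, Ppp1r9a and Arhgap32), 5 without controls 1 and 2, 8 with the GC correction, 8 with it and a replicate block, and 8 with it and control 1 or control 2 left out; leaving out a single library gave 0 to 1, namely Ppp1r9a without control 1 or mimic 3, Ppp3ca without control 2, Iqsec2 without control 4 and Dbn1 without control 5. Calls of higher genes moved from 3 to 10 scaled to neuron markers, 9 without controls 1 and 2, 7 with the GC correction, 8 with it and a replicate block, 9 with it and control 1 left out and 8 with it and control 2 left out; single libraries left out gave 2 to 6, with 6 without control 1 and Dlgap1 kept only without control 1 or mimic 5. The number of all genes called higher moved too, from 2163 to 4915 scaled to neuron markers, 3058 without controls 1 and 2 and 2985 with the GC correction, and that of genes called lower from 2019 to 804, 2892 and 3021. The replicate block alone gave 0 lower and 2 higher, without Dlgap1, whose adjusted p was then 0.0849. The median log2 fold change moved to 0.106 scaled to neuron markers, 0.047 without controls 1 and 2, 0.011 with the GC correction, 0.012 with it and the block and 0.018 with it and without control 1, and was −0.0009 with it and without control 2; without single libraries it ran from −0.022 to 0.030. With 8-base sites only, 2 genes held a site. Rasgrf1 and Tanc1 were called higher under all 23 alternatives. The cause of these shifts was not tested.

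Of the 33 genes, 13 kept the sign of their log2 fold change under all 23 alternatives; the other 20, none of them called by edgeR as counted, changed it under at least 1, and the only such change that was called was that of Dlg4 without controls 1 and 2 (adjusted p = 0.00401). Scaled to neuron markers, Dlg2 0.089, Dlg3 0.036, Dlg4 0.11, Dlgap4 0.075, Shank1 0.082, Shank2 0.11, Homer2 0.054, Homer3 0.050, Nrgn 0.10, Ppp3ca 0.014, Ppp3cb 0.095, Ppp1r9a 0.0031, Baiap2 0.11, Arhgap32 0.047, Tanc2 0.098 and Lrrc7 0.075 turned above 0. Without controls 1 and 2, Dlg4 0.10, Dlgap4 0.038, Shank1 0.072, Shank2 0.031, Homer3 0.061, Nrgn 0.083 and Baiap2 0.047 did. With the GC correction the values were Shank1 0.016, Shank2 0.0052, Nrgn 0.022 and Baiap2 0.011, with it and the replicate block Shank1 0.018, Shank2 0.0056, Nrgn 0.021 and Baiap2 0.012, with it and control 1 left out Dlg4 0.074, Shank1 0.018, Shank2 0.0044, Nrgn 0.043 and Baiap2 0.011, and with it and control 2 left out Shank1 0.016 and Nrgn 0.0086. Dlg4 was at 0.00047 with DESeq2, 0.000709 with median-ratio factors, 0.0018 without a filter and 0.0073 with the replicate block. Without single libraries the ranges that crossed 0 were Dlg4 −0.032 to 0.075, Dlgap3 −0.036 to 0.12, Dlgap4 −0.063 to 0.014, Shank1 −0.072 to 0.030, Shank2 −0.022 to 0.027, Shank3 −0.0019 to 0.12, Homer3 −0.11 to 0.0064, Iqsec1 −0.019 to 0.030, Nrgn −0.037 to 0.063, Ppp3cb −0.057 to 0.014, Baiap2 −0.027 to 0.035 and Synpo −0.010 to 0.058.

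No control sample correlated best with the mimic sample of its own number, which does not settle whether the numbers pair the samples. The 95% intervals reached 0.063 to 0.21 to either side of the log2 fold change. They are not adjusted over genes, so they are not the limit of what could be called. The interval of Dlg3, −0.14 to −0.01, excluded 0, but the gene was not called as counted. The sum over transcripts of a gene hides isoforms, the GC content used is that of the longest transcript, and a change in the number of neurons or glial cells cannot be told apart from a change within them.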
